A study of Homo sapiens with 2 samples.

Results

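In HCT116 cells, 2214 peaks of the transcription factor ATF1 had their summit, the position of highest signal, just upstream of a gene, within 200 bp of where its transcription starts. They were chosen by position alone: the deposited table places them in its class of peaks upstream of a gene by at most 2 kb, and the summit lies at most 200 bp from the nearest gene end. They made up 14.7% (95% interval 14.1 to 15.3) of the 15064 listed peaks and 73.9% (72.3 to 75.5) of the 2996 peaks of the upstream class. HCT116 is an established human colon adenocarcinoma line. The series has 1 ChIP-seq (chromatin immunoprecipitation with sequencing) library from HCT116 cells given 3xFlag-tagged ATF1, precipitated with an antibody to the tag, and 1 input DNA library of the same line, for which no table was used here. Both were grown alike in serum-containing medium. The peaks are those of the tagged protein, and neither library has a replicate, so no p-value is given. Intervals on shares are exact binomial (Clopper-Pearson), those on medians are exact order-statistic intervals, and those on tags are exact Poisson, all at 95%. They describe counting error over the peaks of this library only, and peaks of 1 library are not replicates.

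ATF1 belongs to the CREB family of leucine zipper proteins, with CREB1 and CREM, and binds DNA as a dimer. Its preferred site is the palindromic cAMP response element (CRE), TGACGTCA, and it can also bind shorter sites built on the core TGACG. Protein kinase A and related kinases phosphorylate it, and it then recruits the coactivators CREBBP and EP300 to promoters. CREs that respond to cAMP are known to lie mostly close to transcription starts, often in CpG-rich promoters.

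Reference sequence showed what lay under these summits. Promoter windows came from RefSeq (GRCh38.p14, the assembly of hg38) and run from 250 bases before to 50 after a start. A window of the same gene held the summit for 1549 members (70.0%). The first set below shows the 6 members of highest fold enrichment (the authors' ratio of ChIP signal to an unstated background) whose window holds the full CRE. Each stretch is reference sequence around the summit, printed 5′ to 3′ on the strand of the gene, with the CRE in capitals. It ends before the RefSeq start of its window. That start can differ from the listed gene start, and in this set all stretches but that of FKBP15 run past the listed start.
LOC100288069 (chr1:778676-778776, minus strand, 58.95-fold): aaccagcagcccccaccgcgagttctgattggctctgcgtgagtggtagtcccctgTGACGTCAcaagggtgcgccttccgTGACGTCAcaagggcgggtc
TFCP2 (chr12:51173136-51173232, minus strand, 50.73-fold): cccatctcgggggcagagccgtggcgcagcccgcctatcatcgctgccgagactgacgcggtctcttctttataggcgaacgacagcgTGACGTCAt
NUP214 (chr9:131125502-131125585, plus strand, 50.40-fold): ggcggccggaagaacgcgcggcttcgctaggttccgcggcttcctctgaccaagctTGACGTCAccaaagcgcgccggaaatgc
CLCN3 (chr4:169620421-169620539, plus strand, 38.47-fold): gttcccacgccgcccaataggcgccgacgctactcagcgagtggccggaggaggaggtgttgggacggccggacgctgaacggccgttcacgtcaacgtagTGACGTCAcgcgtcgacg
FKBP15 (chr9:113221407-113221507, minus strand, 37.22-fold): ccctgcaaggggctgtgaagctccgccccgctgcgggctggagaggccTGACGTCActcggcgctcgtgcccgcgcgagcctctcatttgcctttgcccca
SYAP1 (chrX:16719510-16719611, plus strand, 35.52-fold): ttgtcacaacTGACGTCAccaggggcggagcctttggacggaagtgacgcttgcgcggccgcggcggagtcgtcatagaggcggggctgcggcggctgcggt

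Among members with a window, the highest in fold enrichment did not carry the full CRE; 3 members of the overall top 10 have no window and their sequence was not read. The highest pair with a window, shown next, holds only the core TGACG, capitalised here; in DPH3 it reads CGTCA because it lies on the opposite strand.
DPH3 (chr3:16265015-16265115, minus strand, 84.74-fold): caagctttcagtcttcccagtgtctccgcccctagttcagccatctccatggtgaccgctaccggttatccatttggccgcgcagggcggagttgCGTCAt
CTH (chr1:70411100-70411200, plus strand, 80.28-fold): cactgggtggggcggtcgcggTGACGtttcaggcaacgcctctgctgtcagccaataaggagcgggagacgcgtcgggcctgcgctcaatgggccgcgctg

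A last pair had no TGACG anywhere in its window, and stood highest among members of that kind. Both hold more than 1 copy of CCAAT, the box bound by NF-Y, which is capitalised on either strand.
ALKBH6 (chr19:36014374-36014474, minus strand, 40.14-fold): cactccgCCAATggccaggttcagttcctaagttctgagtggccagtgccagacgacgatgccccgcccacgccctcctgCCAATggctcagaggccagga
IARS (chr9:92293721-92293821, minus strand, 35.68-fold): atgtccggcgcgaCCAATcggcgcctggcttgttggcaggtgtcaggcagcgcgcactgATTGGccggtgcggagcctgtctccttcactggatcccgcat

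The summits crowded toward the start. The median distance was 58 bp (quartiles 27 and 100 bp), and 1663 members (75.1%) lay within 100 bp. By distance, 526 summits lay at 1 to 25 bp, 467 at 26 to 50 bp, 374 at 51 to 75 bp, 296 at 76 to 100 bp, 380 at 101 to 150 bp and 171 at 151 to 200 bp. The rule sets only the outer limit, and within it the count per base fell with distance.

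**Figure D1:**
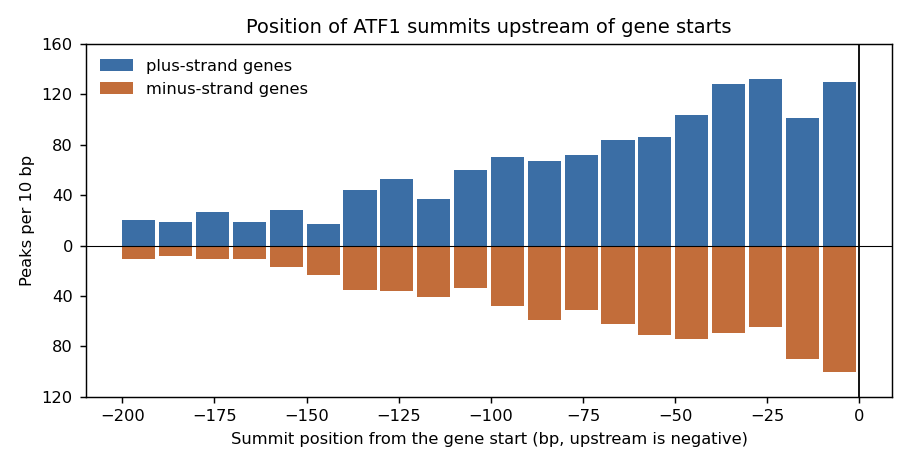
Number of summits per 10 bp of distance upstream of the gene start, for plus-strand genes above the axis and minus-strand genes below it. Both directions are densest near the start, and the median distance was 57 bp for plus-strand and 59 bp for minus-strand genes.

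Genes read in the plus direction held 1298 members (58.6%, interval 56.5 to 60.7) and genes read in the minus direction 916 (41.4%). The direction taken from the nearest gene end was the same as the RefSeq strand for all 1688 members that could be checked. In chromosome coordinates these plus-strand members lie to the left of their gene, and peaks of 2 other classes also lay to the left more often: 65.6% (62.2 to 68.9) of upstream peaks at 200 to 2000 bp, and 71.5% (66.8 to 75.8) of downstream peaks, where left means minus-strand genes. Among members with a RefSeq start of an opposite-strand gene within 1 kb, 49.4% (44.3 to 54.4, n = 393) were assigned to the plus-strand gene, against 60.1% (57.8 to 62.5, n = 1749) of those without one. Fold enrichment was similar in the directions, with a median of 8.36 (8.01 to 8.68) for plus and 8.80 (8.30 to 9.22) for minus.

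Every member's peak ran across the start into the gene. The rule leaves little room for another outcome, with summits within 200 bp of the start and a median peak length of 1745 bp. A median of 53.5% of the peak length, or 918 bp, lay downstream of the start (quartiles 44.7% and 61.2%). Measured from the summit, peaks reached 976 bp downstream and 692 bp upstream at the median. The downstream side was the longer in 1582 members (71.5%, 69.5 to 73.3). The lean held in both directions, at 995.5 bp against 696.5 bp for plus-strand genes and 947.5 bp against 689.5 bp for minus-strand genes. For comparison, 581 peaks of the exonic and intronic classes with a summit 0 to 49 bp inside a RefSeq start reached 805 bp downstream and 665 bp upstream, and 67.3% (63.3 to 71.1) were longer downstream.

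Peaks just upstream of a start were stronger than peaks farther upstream, farther inside genes or downstream of them. Their median fold enrichment was 8.47 (8.24 to 8.81; quartiles 5.93 and 12.76; range 3 to 121.03). Among them 860 (38.8%, 36.8 to 40.9) reached 10-fold, against 23.9% of all listed peaks, and 206 (9.30%, 8.13 to 10.6) reached 20-fold, against 5.08% of all listed peaks. Upstream peaks at 200 to 2000 bp had a median of 6.50 (6.2 to 6.83; n = 782), and 20.8% (18.0 to 23.9) of them reached 10-fold. The nearest equivalent was the 3002 exonic and intronic peaks with a summit within 200 bp of a gene end, at 8.23 (7.98 to 8.45) and 37.4% (35.7 to 39.2), so the intervals of these near-end sets overlapped. At 20-fold, that inner set stood at 10.5%.

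**Figure D2:**
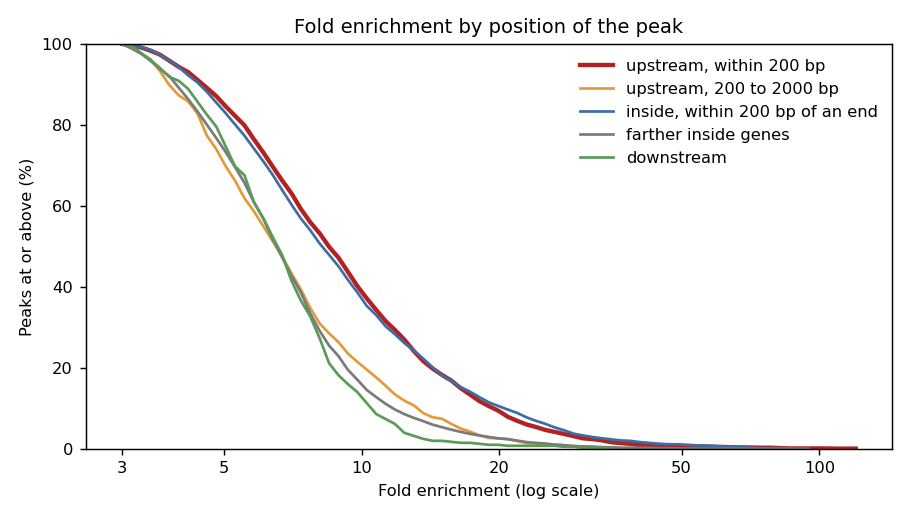
Percentage of peaks at or above each fold enrichment (log scale), by position of the peak. The curves for peaks within 200 bp upstream and within 200 bp inside a gene end run together (38.8% and 37.4% at 10-fold), above the 3 other sets.

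Tags, the reads counted in each peak, separated the near-end sets where fold enrichment did not. The median member had 287 tags (from 16 to 2692, with quartiles at 178 and 417), against 221 (215 to 228) for the inner near-end peaks and 218 for upstream peaks at 200 to 2000 bp. Their median length was 1745 bp, against 1567.5 bp and 1962.5 bp. Per kb of peak the medians were 150, 132 and 95.4 tags. The depth of the library is not known, so these counts are comparable only within the list.

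Strength varied little over the first 100 bp and was lower at the far edge. Median fold enrichment was 9.01 at 1 to 25 bp, 8.83 at 26 to 50 bp, 8.45 at 51 to 75 bp, 8.73 at 76 to 100 bp, 8.18 at 101 to 150 bp and 6.84 (6.24 to 7.72) at 151 to 200 bp. The share at 10-fold or more went from 41.3% in the nearest bin to 29.2% (22.5 to 36.7) in the farthest. Across the 2214 members the rank correlation of fold enrichment with distance was −0.08, as a description over peaks of 1 library. At the limit itself, the summits of ABHD11 (6.14-fold, 393 tags), CBFA2T2 (12.30-fold, 404 tags) and GRASP (3.14-fold, 247 tags) lay at 200 bp. Just beyond it, at 202 bp, were MET (4.13-fold, 367 tags), UNC80 (4.05-fold, 112 tags) and ZNF622 (7.43-fold, 251 tags).

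The full CRE was held by 85 of the 1549 members with a window (5.49%, 4.41 to 6.74). It was held by 1.84% of all 34789 RefSeq promoter windows and by 0.786% (0.654 to 0.938) of the 15639 windows that overlapped no listed peak and whose gene was not in the table, a ratio of 6.98. The peaks just inside a start held it in 5.16% (3.51 to 7.29). Part of the contrast moved with base composition: members had a median CpG observed-to-expected ratio of 0.892 and 69.7% GC, against 0.261 and 48.7% in windows without a listed peak. In the highest of 3 equal CpG classes of windows, 5.97% of members (71 of 1190; 4.69 to 7.47) and 2.29% of windows without a listed peak (42 of 1837; 1.65 to 3.08) held the CRE, a ratio of 2.61. In the middle class the shares were 3.70% (13 of 351; 1.99 to 6.25) and 0.968% (0.712 to 1.28), a ratio of 3.83. In both classes the ratio was smaller than over all windows and the intervals did not overlap. The lowest class held only 8 members, 1 with the CRE (12.5%, 0.316 to 52.7), against 0.380% (0.263 to 0.531), which is too few to compare.

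Shorter and related words were more widespread. All were searched on both strands, and TGACG is part of TGACGTCA. The core TGACG stood in 650 windows of members (42.0%, 39.5 to 44.5), in 24.5% of all windows and in 16.6% of windows without a listed peak. Within the CpG-richest windows the shares were 45.8% of members and 32.2% of those without a peak. GGGCGG, the GC box of SP-family factors, was in 86.1% of members and 44.9% of all windows. In the highest CpG class it was in 87.1% of members, 79.5% of all windows and 71.9% of those without a listed peak, a smaller contrast, and in the middle class in 83.2%, 47.9% and 33.5%. CCAAT was in 42.8% of members and 34.6% of all windows, and CCGGAA, an ETS-family core, in 31.2% and 17.2%. GCATGCGC, the NRF1 core, was in 5.23% and 3.02%, and AAGATGGC, the core bound by YY1, in 4.71% and 2.89%. The E-box CACGTG was in 12.8% and 7.24%. CCGGAA, GCATGCGC, AAGATGGC and CACGTG were not compared within CpG classes.

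Words of other leucine zipper dimers were scarcer in members than in the other windows, which are poorer in GC and CpG. The words in this paragraph were not compared within CpG classes, so scarcity at like composition was not tested. The AP-1 site TGAGTCA, which differs from the CRE by lacking its central base pair and is bound by FOS and JUN dimers, was in 2.52% of members (39 windows), 4.93% of all windows and 6.75% of windows without a listed peak. TGATGCAA, a composite site of C/EBP and ATF4, was in 0.258%, 0.868% and 1.28%. The TATAAA box was in 4.20% of members and 11.6% of all windows. TGACATCA, a form of the CRE changed at its CpG, was in 0.775% of members and 3.75% of windows without a listed peak.

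Fold enrichment followed the CRE word. Members whose window held the full CRE had a median of 16.95 (15.11 to 18.96), against 8.39 (8.06 to 8.71) for the rest. None was below 6.21-fold, 75 of 85 (88.2%, 79.4 to 94.2) reached 10-fold and 26 (30.6%) reached 20-fold. The 128 members with an 8-letter form 1 change away that keeps TGACG stood at 12.5 (11.15 to 13.88), and 85 of them (66.4%) reached 10-fold. The 437 with TGACG in another setting stood at 10.26 (9.62 to 10.86), with 227 (51.9%) at 10-fold or more. The 899 without TGACG (58.0%) stood at 7.28, with 237 (26.4%, 23.5 to 29.4) at 10-fold or more. Tags ran in the same order, with medians of 498, 390.5, 355 and 255, while median peak length ranged only from 1718 to 1815.5 bp.

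**Figure D3:**
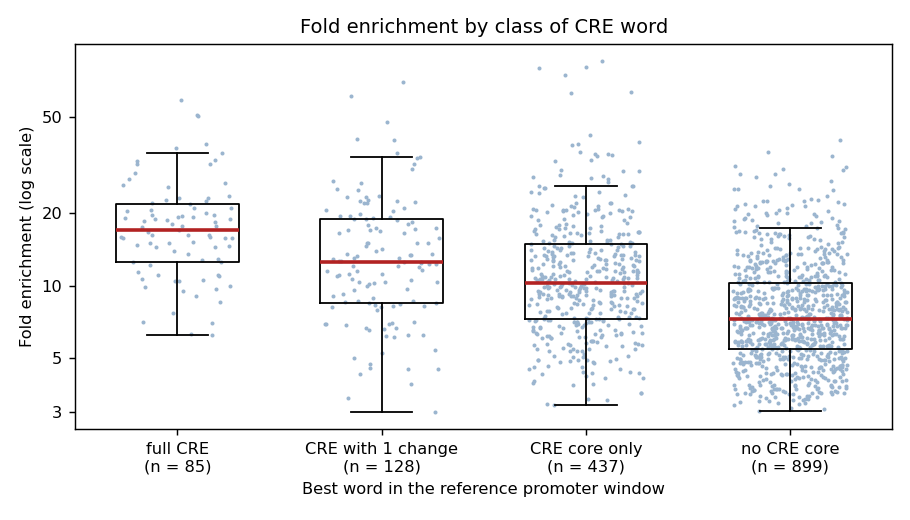
Fold enrichment (log scale) of the 1549 members with a reference window, by the best CRE word in it; CRE core means TGACG. Points are peaks, boxes give quartiles with the median in red, and whiskers reach 1.5 interquartile ranges at most; the medians step down from 16.95 with the full CRE to 7.28 with no core.

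With members divided into 4 equal groups by fold enrichment, the lowest group (3 to 6.05-fold) held no full CRE in 388 windows, which allows a share of up to 0.773% taken as 3 counts of the total, or 0.946% by the exact interval. The next groups held 6 (1.55%) and 18 (4.65%), and the highest group (13.05 to 84.74-fold) held 61 of 387 (15.8%, 12.3 to 19.8). TGACG went from 19.1% of windows in the lowest group to 68.2% in the highest, CCAAT from 30.2% to 51.2% and CCGGAA from 21.4% to 37.2%. GGGCGG went the other way, from 87.6% to 81.1%, and TGAGTCA from 3.09% to 1.81%. Median GC content also moved, from 72.7% to 66.7%. The difference with the CRE was present at each GC level: in the lowest, middle and highest of 3 GC classes, medians with and without it were 19.2 and 10.04, 18.2 and 8.71, and 14.99 and 6.90. Peaks just inside a start showed a like difference, 19.08 (14.25 to 28.27) with the CRE and 7.99 without.

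Single-base forms of the CRE had different medians, with wide intervals. A window counted for a form may also hold the full CRE or another TGACG. The most common that kept TGACG were TGACGCCA (37 members, median 13.44-fold), TGACGTCG (30 members, 12.3-fold) and TGACGTCT (18 members, 15.8-fold). TGACGTAA (14 members) had a median of 17.6-fold (12.06 to 33.61), near that of the full CRE. TGACGTTA, in only 6 members, had 20.54-fold (13.48 to 61.15). Medians closer to that of members without TGACG were 7.91-fold (4.74 to 18.9) for TGACGTCC in 11 members and 8.51-fold (6.24 to 15.78) for TGACGGCA in 12. Their intervals overlapped those of TGACGTAA and TGACGTTA. The 3 forms that lose the core had medians of 16.4-fold (7.73 to 25.06) for TGACCTCA in 16 members, 13.75-fold (6.81 to 28.25) for TGACATCA in 12 and 11.92-fold (3.64 to 16.57) for TGAAGTCA in 9. These small sets are given as values only.

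Without choosing words in advance, the 5619 words of 8 letters held by at least 20 members were ranked by the median fold enrichment of the members holding them. TGACGTCA ranked 4. Ahead of it were CGTCATCA (20.52-fold, 23 members), ACGTCATC (19.77-fold, 26 members) and ATGACGTC (19.19-fold, 35 members), all of which contain TGACG on one strand. Of the 20 highest words 15 contained TGACG on one strand or the other, against 58 of all 5619 words (1.03%). Several of these words overlap, such as TGACGTCA and GACGTCAC, and can come from the same site, so they are not separate finds. Ranked instead by how much more often members held a word than windows without a listed peak did, TGACGTCA came 195, behind CpG-rich words such as GCGCGGTA (ratio 18.2).

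CREs sat under the summits. Of the 90 full CREs in the windows, 76 (84.4%, 75.3 to 91.2) were centred within 50 bp of the summit, where 33.7% of all window positions lie. Per 1000 positions there were 0.740 CREs (0.560 to 0.959) within 25 bp of the summit and 0.0367 (0.0135 to 0.0800) beyond 100 bp, a ratio of 20.1. The same ratio was 4.84 for TGACG, 3.81 for GCATGCGC, 2.61 for CCAAT, 2.20 for GGGCGG, 1.83 for CCGGAA and 1.77 for TGAGTCA. The nearest CRE lay a median of 12.5 bp from the summit (quartiles 5.5 and 33.5 bp). From the RefSeq start of the window its median position was −68.5 (quartiles −116.5 and −43.5), that is, upstream of that start. The RefSeq start can differ from the listed gene start used for summit distances. In CLCN3, for example, the CRE lies past the listed start.

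**Figure D4:**
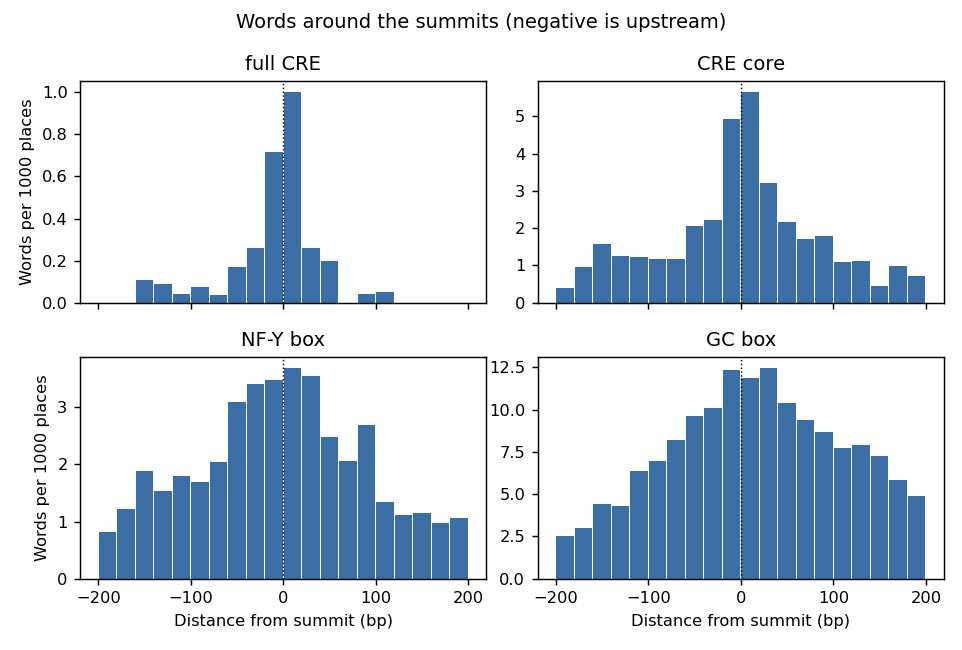
Words per 1000 window positions in 20 bp steps from the summit, upstream to the left, for the full CRE, its core TGACG, the NF-Y box CCAAT and the GC box GGGCGG; each panel has its own scale. The full CRE is the most tightly centred (20.1 times as dense within 25 bp as beyond 100 bp), and the GC box is broad (2.20 times).

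Of the 85 members with a CRE, 5 held more than 1, with a median of 29.24-fold, against 16.4-fold for the 80 with 1. The 5 ranged from 8.56 to 58.95-fold and are too few for an interval. In the sequences printed above, LOC100288069, an uncharacterized RNA gene, carries 2 copies. Its CRE nearest to the summit is centred 9.5 bp away, as is that of NUP214, a nuclear pore protein. The distance was 1.5 bp in FKBP15, an FK506-binding-protein family member. It was 41.5 bp in the transcription factor gene TFCP2 and 54.5 bp in the chloride transporter gene CLCN3, both toward the gene, and it stood at −43.5 bp, on the side away from the gene, in SYAP1. Tags in these peaks were 118 for LOC100288069, 491 for TFCP2, 606 for NUP214, 446 for CLCN3, 333 for FKBP15 and 338 for SYAP1, so the peak of highest fold enrichment with a CRE was also the one with fewest tags.

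CCAAT went with higher fold enrichment both with and without TGACG, by a smaller amount. Members with both words stood at 12.47 (10.9 to 13.32; n = 287) and members with TGACG alone at 10.96 (10.23 to 11.54; n = 363), so these intervals overlapped. Members with CCAAT alone stood at 8.27 (7.67 to 8.79; n = 376) and members with neither at 6.69 (6.37 to 7.03; n = 523). The shares at 10-fold or more were 63.4%, 56.5%, 34.8% and 20.3%. Median GC content in the same order was 68.7%, 70.3%, 68.3% and 70.7%, and its part in these differences was not tested. ALKBH6, a gene of the AlkB dioxygenase family (276 tags), IARS, the cytosolic isoleucyl-tRNA synthetase (312 tags), and STT3A, a catalytic subunit of the oligosaccharyltransferase that N-glycosylates proteins in the ER (34.41-fold, 272 tags), were the highest without TGACG.

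Pairs of genes read away from each other from nearby starts carried somewhat stronger peaks. Of the 2142 members whose chromosome has windows, 393 (18.3%) had a RefSeq start of an opposite-strand gene within 1 kb upstream, at a median gap of 149 bp. Their median fold enrichment was 9.39 (8.80 to 10.04), against 8.33 (8.03 to 8.59) for the others, and their tags 336 (310 to 356) against 276. The share at 20-fold or more was 13.0% against 8.40%. The CRE was held by 6.44% and 5.26%. For such a pair the table names 1 gene per peak, so the peak may be read from either gene.

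The 10 members of highest fold enrichment were spread over 6 chromosomes and many functions, and the 7 with a window all held TGACG. That word was in 42.0% of all members with a window and in 68.2% of the highest of the 4 groups by fold enrichment. LOC100506022, an uncharacterized locus, stood at 121.03-fold with 502 tags and a summit 14 bp from its start. The pseudogenes GTF2IP12 (104.74-fold, 242 tags) and LOC729218 (84.56-fold, 278 tags) lie on chromosome 4, and as copies of other sequences their reads may be shared with near-identical loci. DPH3, which acts in making diphthamide, the modified histidine of elongation factor eEF2, had 84.74-fold with 498 tags and a summit 76 bp upstream. CTH, which makes cysteine from cystathionine, had 80.28-fold with 265 tags. POP4, a protein subunit of RNase P and RNase MRP, had 79.64-fold with 313 tags, and POLA1, the catalytic subunit of DNA polymerase alpha, had 74.23-fold with 339 tags and a summit 6 bp from the start. GK, glycerol kinase, had 69.47-fold with 233 tags, NUF2, of the NDC80 kinetochore complex, 63.16-fold with 234 tags, and TRMT61B, a mitochondrial tRNA methyltransferase, 62.63-fold with 521 tags. Their tags lay between 233 and 521, around the members' median of 287, so high fold enrichment here did not go with high tag counts.

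The members with most tags were wide peaks of ordinary fold enrichment. RHOT2, a mitochondrial GTPase of the outer membrane, had 2692 tags (2591 to 2796) in a peak of 23330 bp at 8.05-fold, of which 87.3% lay downstream of the start. NRARP, a feedback inhibitor of Notch signalling, had 2240 tags in 22316 bp at 10.09-fold, of which only 7.94% lay downstream. CDK5 had 2029 tags in 12285 bp and PWWP2B 1835 in 20123 bp. Across members tags went with peak length (rank correlation 0.74) more than with fold enrichment (0.21). At the other end, LINC01096 stood at 3.00-fold, LINC00554 at 3.02, MAP7D2 at 3.07, WIF1, a secreted WNT inhibitor, at 3.08, and CTBP1-AS at 3.09, next to the table's lowest value of 3. CTBP1-AS still held 1068 tags over 13916 bp.

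Gene groups differed in how often their listed peak was one of these upstream peaks. Over all names in the table the share was 14.7%. This share counts summits upstream of the gene only, so peaks just inside a gene end are not in it. Genes of the unfolded protein response and ER chaperones stood highest among 18 lists, with 12 of 25 listed genes (48.0%, 27.8 to 68.7; 27 genes in the list). Their median was 15.7-fold, against 7.74-fold for the list's peaks elsewhere, and 10 of 12 reached 10-fold, against 38.8% of all members. SEL1L, a partner of the ER-associated degradation ligase HRD1, had 25.20-fold with 214 tags. HSPA5, the ER chaperone BiP, had 23.30-fold with 363 tags. DDIT3, which encodes the stress factor CHOP, had 21.36-fold with 325 tags. None of the 12 windows held the full CRE and 5 held TGACG. For so few windows these counts are near the shares of all members with a window, 5.49% and 42.0%. All 12 held CCAAT, against 42.8% of all members with a window. The ER stress response element, a CCAAT followed after 9 bases by CCACG and bound by NF-Y with ATF6, was searched after these values were seen. It was in 6 members' windows (0.387%, 0.142 to 0.841) and in 0.0776% of all windows. The element holds a CpG and was not compared within CpG classes. Of the 6 members, 3 are in this list: HSPA5, HSP90B1 (16.00-fold) and XBP1 (9.90-fold). The others were FICD (18.85-fold), TMEM120A (7.15-fold) and ERO1B (7.02-fold), of which FICD and ERO1B also act in the ER. The list and the element both come from textbook knowledge of ER stress, so the element's presence in the list is not independent support.

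Cell cycle genes gave 10 of 28 (35.7%, 18.6 to 55.9), at a median of 11.5-fold, near the 11.46-fold of the list's peaks elsewhere. CDC6, which loads the replicative helicase, had 30.11-fold with 183 tags and no TGACG in its window. MCM2, a subunit of that helicase, had 20.94-fold with 372 tags, and MAD2L1, of the spindle checkpoint, 18.18-fold with 198 tags. The other members were CCND1, MCM5, CDK4, CCNB1, CDC20, CCNE1 and CDC25A, the last of these lowest at 4.47-fold.

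The classical targets of CREB proteins gave 6 of 27 (22.2%), and these were alike in strength, at 12.16 to 15.05-fold with a median of 848 tags. RGS2, which shortens G-protein signalling, had 15.05-fold with 407 tags. DUSP1, a phosphatase of MAP kinases, had 14.99-fold with 888 tags, and AREG, an EGF receptor ligand, 14.59-fold with 299 tags. FOS had 13.22-fold with 808 tags, JUND 12.47-fold with 1077 tags and CCND1, also in the cell cycle list, 12.16-fold with 960 tags. DUSP1, AREG and JUND held the full CRE, and 5 of the 5 with a window held TGACG. Among all members with a window these shares were 5.49% and 42.0%. The list was written from textbook knowledge of CRE targets, so these words in it are not independent support.

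Single strong peaks stood out in lists whose share was nearer 14.7%. In vesicle trafficking (7 of 34) COPB2, a coatomer subunit, had 39.18-fold, RAB1A, a GTPase of ER-to-Golgi transport, 23.57-fold and SAR1B, the GTPase of COPII coats, 15.93-fold. Apoptosis gave 6 of 27, led by CYCS, cytochrome c, at 23.65-fold, DAD1 at 17.15-fold and PMAIP1, the BH3 protein NOXA, at 11.80-fold. RNA splicing gave 5 of 25, with SRSF3 at 28.00-fold, SF3B1 at 21.80-fold and SF3A3 at 14.13-fold. Among the remaining lists, the highest were PSMA7 at 12.77-fold for the proteasome (5 of 23), RHEB at 12.62-fold for RAS, MAP kinase and PI3K signalling (5 of 24) and FANCI at 11.02-fold for DNA repair (5 of 28). The cytosolic ribosome gave 4 of 27. SDHC had 23.29-fold for oxidative phosphorylation (3 of 24) and MRPS14 16.32-fold for the mitochondrial ribosome (3 of 24). The ATF and CREB family with its coactivators gave 2 of 21, ATF7 at 15.11-fold and CREBRF at 4.66-fold. These lists have at most 34 listed genes, and the intervals of all lists but the unfolded protein response and cell cycle ones span the overall share. Exonic or intronic peaks within 200 bp of a gene end outnumbered members in several lists. There were 16 in vesicle trafficking, 13 in the cytosolic ribosome, 12 in the mitochondrial ribosome and 11 in oxidative phosphorylation. Cell cycle genes had 10 such peaks, equal to their members. Fewer than members were the 4 of the unfolded protein response list and the 2 of the classical targets.

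**Figure D5:**
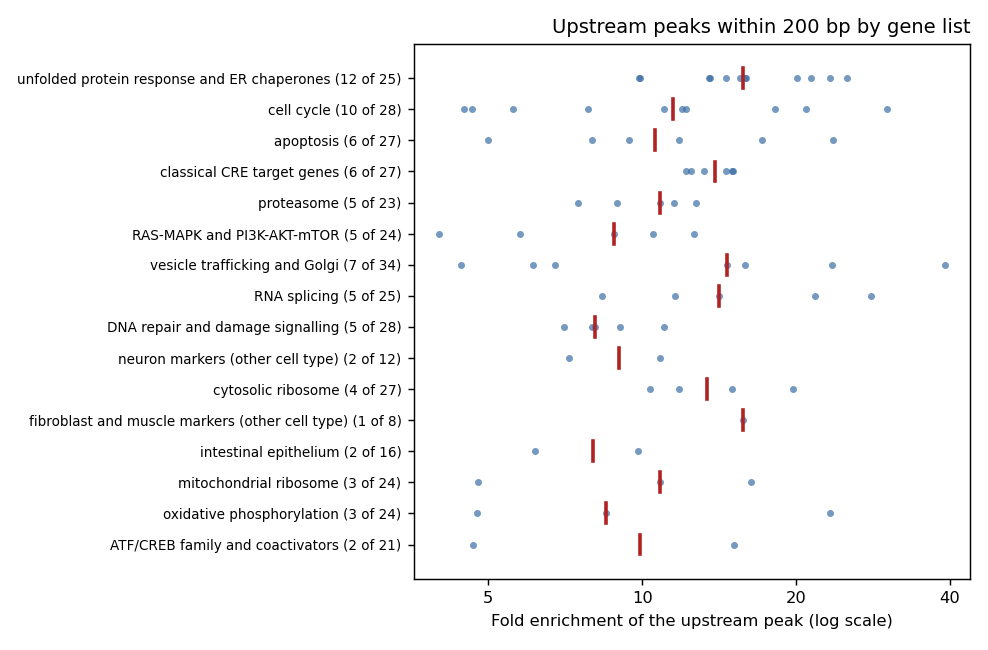
Fold enrichment (log scale) of each member peak, by gene list, with list medians as red bars; brackets give members of listed genes. The unfolded protein response list has the highest share (12 of 25) and all of its peaks at 9.84-fold or more.

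Lists of cell type markers had few members, and the intervals of their shares all span the 14.7% of all names. The intestinal list gave 2 of 16 (12.5%), the stem cell marker LGR5 at 9.83-fold and the epithelial cadherin gene CDH1 at 6.17-fold. No hepatocyte (0 of 3 listed) or lymphocyte (0 of 9 listed) marker was a member. The fibroblast and muscle list gave 1 of 8 (12.5%), FN1 (fibronectin) at 15.78-fold with a full CRE, and the neuron list 2 of 12 (16.7%), SYT1 at 10.83-fold and MAP2 at 7.20-fold. A peak does not show whether the gene is expressed.

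By kind of gene, 1879 members (84.9%) were protein-coding, with a median of 8.57-fold. Long non-coding RNA genes had such a peak in 161 of 1656 listed (9.72%), at 7.37-fold, and the share of listed protein-coding genes was 15.5%. Another 14 members were assigned to microRNA genes (median 10.07-fold), led by MIR4757 at 27.96-fold, MIR4522 at 21.85-fold and MIR4442 at 15.52-fold. The start used for these is the annotated hairpin, which is usually cut from a longer transcript. Of 35 listed tRNA genes 9 were members, with a median of 7.58-fold and TRP-AGG2-4 highest at 34.50-fold. TERC, the RNA template of telomerase, had 6.31-fold with 189 tags. The small RNA genes named in this paragraph were chosen after their values were seen.

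Across chromosomes, members made up between 10.7% (chromosome 13) and 19.2% (chromosome 18) of listed peaks. The 70 members on the X chromosome stood apart in strength. Their median was 12.2-fold, against 7.04 (chromosome 22) to 9.55 (chromosome 12) among the autosomes. Of them 62.9% reached 10-fold, against 38.8% of all members and at most 47.5% on an autosome (chromosome 12). The X chromosome has 392 listed peaks, and those that are not members were not examined, so this is not shown to be particular to members. The median of 122 tags for the X chromosome members was lower than on any autosome, where it ranged from 264 (chromosome 15) to 419.5 (chromosome 21). The number of copies of each chromosome in these cells, and its part in these values, was not tested.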

How the data were processed

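Per the submitters' processing notes, reads were handled with CASAVA, Bowtie2 and bedtools on hg38. Which peak caller, control and annotation were used is not stated in the labels. For each peak of the 1 ChIP library, per the file headers, the deposited columns hold the number of tags (a whole-number count, not normalised), a fold enrichment (a ratio over an unstated background, lowest value 3) and the authors' score (lowest value 50). Both are the authors' own and served to describe or rank peaks inside this list. The table lists 15064 peaks, 1 per gene name; 1 line without a position was left out. Peaks farther than 2 kb from a gene are not listed, so nothing is said of them.

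Shares, medians and intervals were computed with scipy 1.17.1, pandas 2.3.3 and numpy 2.4.6 under Python 3.11.15, plots were drawn with matplotlib 3.10.9, and the code was tested on simulated data. Gene names were matched to RefSeq symbols (2008 current, 95 older, 111 unmatched). For each member, the window of the same gene and strand that holds the summit was used, and the nearest start where several did. Windows for the 72 members on chromosome 8 were not used here. Genes were named by rule: the 10 highest in fold enrichment, the 5 with most tags, the 5 lowest, the 3 on each side of the 200 bp limit, up to 3 per gene list, the 6 highest with TGACGTCA and the 3 highest without TGACG; others are counts of few, given whole. Some genes that this rule names are not reported here. Members, lists and motifs were chosen with earlier results of these data known.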

Additional observations from a re-analysis of the deposited data

How the results depend on the processing

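Among 60 values recomputed under alternatives, 33 stayed within their interval (counts, within 1.5 times), 27 moved and none changed direction. A limit of 100 bp gave 54.5% of peak length downstream of the start, and a limit of 500 bp gave 52.5% with a median of 8.21-fold. Keeping peaks of at least 5-fold gave a median of 9.51-fold, 45.7% at 10-fold or more, 299 tags, 52.9% downstream and 9.30-fold without the CRE. Protein-coding genes alone gave 302 tags and 55.1% downstream. Members with no other gene end within 1 kb numbered 1444, with 8.18-fold, 36.3% at 10-fold or more, 278 tags, 55.1% downstream and 62.0% in the plus direction. Using the peak's midpoint in place of its summit left 752 members with 9.10-fold and 44.0% at 10-fold or more. With TGACG in place of TGACGTCA the share was 42.0% and the medians 11.4-fold with it and 7.28-fold without. By CpG class the CRE share was 12.5% in the lowest (1 of 8 windows) and 3.70% in the middle. By GC class, an alternative chosen after seeing the data, medians with and without the CRE were 19.2 and 10.04 in the lowest and 14.99 and 6.90 in the highest. Apart from those set by their own construction, the cause of these shifts was not tested.

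No paired analysis was possible because only 1 ChIP library has a table, and there was no replicate to leave out. The library's depth and the signal of the input are not known here, so a low fold enrichment was not separated from a shallow measurement, and an unlisted promoter is not shown to be unbound.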

Other observations

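Members formed a modest part of the very strongest peaks of the table: 3 of the 10 highest in fold enrichment, 23 of the 100 highest and 274 of the 1000 highest (27.4%, 24.7 to 30.3), against 14.7% of all listed peaks.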
